A study of Homo sapiens with 2 samples.

Results

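Gene desert peaks are the MYBL2 binding peaks that lay far from any protein-coding gene. A peak of the deposited list was a member when its summit, the base of highest signal, lay outside every protein-coding and lncRNA gene body of the GENCODE annotation and more than 100 kb from every protein-coding transcription start site (TSS). The rule used position alone, and 1773 of the 66954 peaks met it (2.65%). The peaks came from chromatin immunoprecipitation followed by sequencing (ChIP-seq) in A673, an established Ewing sarcoma cell line that the labels give as wild-type, with no treatment named. There was 1 MYBL2 ChIP library and 1 input library of the same cells without immunoprecipitation. With no replicate, no value below has a replicate error and no test between libraries was possible. The antibody is anti-MYBL2 in the labels and against phosphorylated MYBL2 in the study's methods.

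MYBL2 (B-MYB) is a transcription factor of the MYB family that joins the MuvB complex at promoters of late cell cycle genes, where that complex reads the CHR element. Gene deserts are long stretches without genes, and some of them hold distal enhancers of developmental genes. Ewing sarcoma is driven by fusions such as EWSR1-FLI1, an ETS family protein that binds GGAA repeats (microsatellites) and can turn them into enhancers.

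The sequences below were read from the GRCh37 (hg19) reference assembly and not from the cells, and positions count from 1. The gene in each name is the protein-coding gene with the nearest TSS and marks only the place. The first set holds the summit and the 50 bases on each side of it for 3 of the 5 desert peaks with the largest fold enrichment among those without a CpG-rich summit. They are shown because these 5 held neither a MYB site (CAACGG or CAACTG, and likewise TAACGG or TAACTG, on either strand) nor an AP-1 site (TGACTCA or TGAGTCA), which would stand in capitals. Over all members, 11.1% of summits held a MYB site and 3.44% an AP-1 site, so 5 peaks are too few to show a lack.
Near TFCP2L1, chr2:121832853-121832953, plus strand: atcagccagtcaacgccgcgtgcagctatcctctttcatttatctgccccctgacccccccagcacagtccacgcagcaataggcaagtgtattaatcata
Near PPIAL4B, chr1:144534135-144534235, plus strand: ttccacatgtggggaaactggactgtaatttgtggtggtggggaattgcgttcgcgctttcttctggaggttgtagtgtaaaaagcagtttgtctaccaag
Near NFE2L3, chr7:25902647-25902747, plus strand: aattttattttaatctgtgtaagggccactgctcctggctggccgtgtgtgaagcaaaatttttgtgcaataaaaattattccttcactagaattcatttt

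The second set holds 6 GGAA repeats with 20 bases on each side, written on the strand that reads GGAA, with runs of GGAA in capitals. They lay within 500 bp of 6 of the 7 strongest desert peaks that had such a repeat, and that of the third strongest, near LRATD2 with a fold enrichment of 9.14, is not printed. They are shown because such repeats were found far more often near desert summits than at evenly spaced desert positions. The longest perfect run had 5 copies near PAPPA, 13 near BARX2 and 19 near PDGFC.
Near PAPPA, chr9:118743789-118743848, minus strand: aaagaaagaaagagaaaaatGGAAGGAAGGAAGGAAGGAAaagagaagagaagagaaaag
Near BARX2, chr11:129413790-129413881, plus strand: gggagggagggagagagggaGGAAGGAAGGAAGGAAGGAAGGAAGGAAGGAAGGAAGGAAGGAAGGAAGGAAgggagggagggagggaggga
Near ENSG00000289710, chr1:30731706-30731805, plus strand: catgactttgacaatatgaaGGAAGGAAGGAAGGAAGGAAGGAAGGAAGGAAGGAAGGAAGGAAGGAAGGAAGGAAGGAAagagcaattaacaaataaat
Near DCDC2C, chr2:4199611-4199722, minus strand: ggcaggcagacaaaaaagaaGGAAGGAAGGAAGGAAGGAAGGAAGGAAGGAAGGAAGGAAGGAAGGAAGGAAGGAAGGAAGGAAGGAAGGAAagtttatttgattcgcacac
Near VRK1, chr14:97532356-97532467, minus strand: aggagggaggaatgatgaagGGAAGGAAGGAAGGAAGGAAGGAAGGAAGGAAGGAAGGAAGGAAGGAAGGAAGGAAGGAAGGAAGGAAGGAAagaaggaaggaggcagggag
Near PDGFC, chr4:157439026-157439141, plus strand: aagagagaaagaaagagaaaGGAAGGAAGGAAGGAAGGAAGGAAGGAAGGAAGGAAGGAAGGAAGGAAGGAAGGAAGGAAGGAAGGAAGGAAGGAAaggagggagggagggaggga

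The third set holds the same stretch at the 3 strongest CpG-rich desert summits, with each CG in capitals, since CpG-rich members had the larger fold enrichments.
Near PRKX, chrX:3733735-3733835, plus strand: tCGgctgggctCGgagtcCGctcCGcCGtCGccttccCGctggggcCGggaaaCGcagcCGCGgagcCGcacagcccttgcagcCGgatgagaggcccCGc
Near GRK3, chr22:25843990-25844090, plus strand: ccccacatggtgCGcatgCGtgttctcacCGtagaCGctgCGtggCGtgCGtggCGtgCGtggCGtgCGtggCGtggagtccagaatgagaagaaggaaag
Near PRKX, chrX:3733157-3733257, plus strand: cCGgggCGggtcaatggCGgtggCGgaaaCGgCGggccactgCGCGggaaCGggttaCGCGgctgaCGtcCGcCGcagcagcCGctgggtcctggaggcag

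The fourth set holds it at the 3 strongest desert summits with a MYB site and no GGAA repeat within 2000 bp, with the site in capitals. It shows the sites that the MYB family is known to read.
Near XPNPEP1, chr10:110375801-110375901, plus strand: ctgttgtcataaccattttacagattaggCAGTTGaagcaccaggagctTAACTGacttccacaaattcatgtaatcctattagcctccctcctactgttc
Near RGS17, chr6:153859711-153859811, plus strand: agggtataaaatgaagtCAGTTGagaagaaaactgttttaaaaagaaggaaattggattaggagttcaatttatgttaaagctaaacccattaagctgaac
Near PCDH18, chr4:138556977-138557077, plus strand: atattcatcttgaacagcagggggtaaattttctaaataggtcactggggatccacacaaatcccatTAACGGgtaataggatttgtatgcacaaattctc

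The fifth set holds the 3 strongest desert summits with an AP-1 site, the element of the FOS and JUN family, chosen in the same way and with the site in capitals. The AP-1 site had the largest ratio of summit to flank share among the sites with over 10 desert summits.
Near ENSG00000289710, chr1:30851969-30852069, plus strand: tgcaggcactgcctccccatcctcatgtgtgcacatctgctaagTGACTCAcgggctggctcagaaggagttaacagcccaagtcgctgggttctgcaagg
Near ANKRD30A, chr10:36713056-36713156, plus strand: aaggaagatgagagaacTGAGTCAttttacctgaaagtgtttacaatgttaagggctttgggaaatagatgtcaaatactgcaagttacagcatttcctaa
Near INTU, chr4:127699647-127699747, plus strand: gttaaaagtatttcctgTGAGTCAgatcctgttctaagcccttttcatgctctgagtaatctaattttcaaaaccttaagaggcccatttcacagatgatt

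Desert peaks were sparse. The sequence that met the rule spanned 557 Mb, or 19.6% of the 2836 Mb of ungapped genome, and held 3.19 peaks per Mb (95% Poisson interval 3.04 to 3.34). The rest of the genome held 28.6 peaks per Mb, a ratio of 0.111. Over intergenic sequence the density fell with each step in distance from the nearest protein-coding TSS, and the desert members continued that fall. From 50 to 100 kb, just outside the rule, there were 5.49 peaks per Mb (5.12 to 5.87). From 100 to 200 kb there were 4.69 (4.36 to 5.03, 757 peaks), and from 200 to 500 kb 3.03 (2.80 to 3.28, 628 peaks). From 500 to 1000 kb there were 2.40 (2.14 to 2.68, 315 peaks). Beyond 1000 kb there were 1.29 (1.01 to 1.62, 73 peaks). The intervals cover counting error only, here and for every interval below, since fragments copied by PCR are not independent molecules. Neighbouring peaks are not independent either, so the intervals of densities and of shares of peaks are too narrow.

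**Figure D1:**
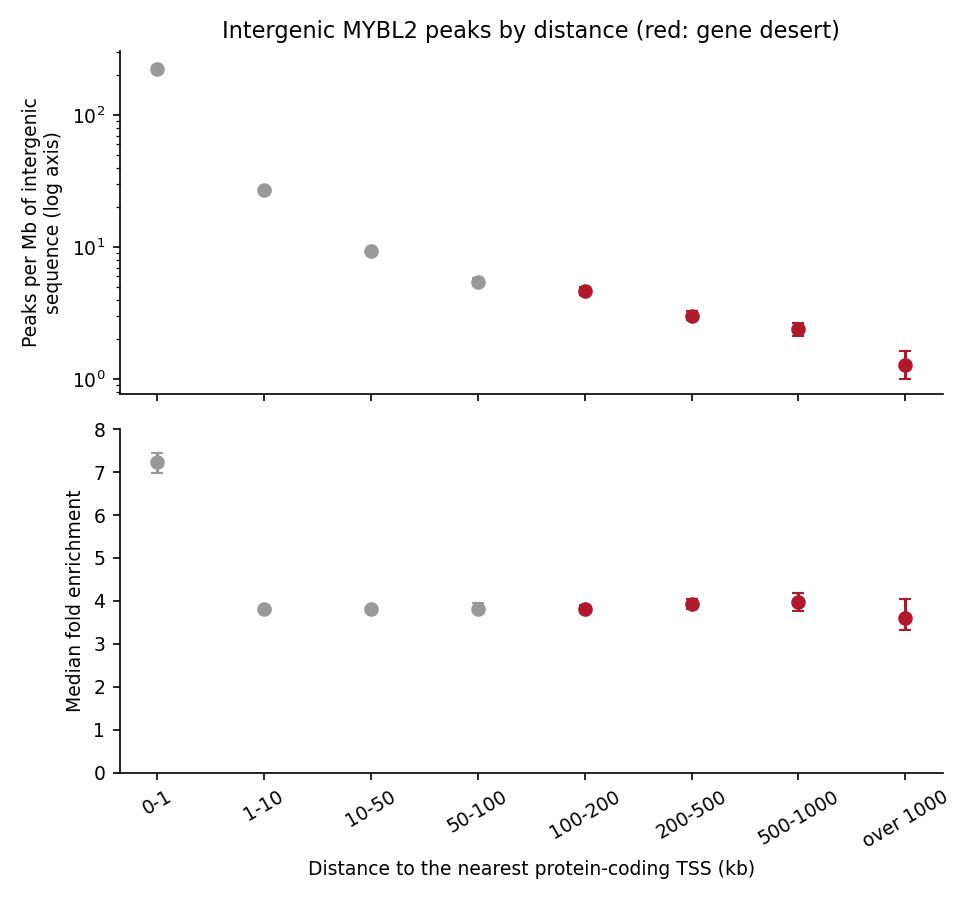
Peaks per Mb of intergenic sequence (top, log axis, with 95% Poisson intervals) and median fold enrichment (bottom, with 95% intervals of the median) by distance to the nearest protein-coding TSS in kb, with the desert range in red. Density falls from 226 peaks per Mb within 1 kb to 1.29 beyond 1000 kb, while the median fold enrichment beyond 1 kb stays between 3.59 and 3.97.

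The median member lay 232 kb from a protein-coding TSS. The member farthest from one, at chr4:180982034-180982202, was 2083 kb from TENM3, a cell adhesion gene, and had a fold enrichment of 3.01. At the limit of the rule, the 3 members just inside lay 100.07, 100.09 and 100.14 kb from the TSSs of PDE3A, FAM13C and PPFIA2 and had fold enrichments of 3.31, 3.80 and 6.53. The 3 intergenic peaks just outside lay 99.95, 99.89 and 99.81 kb from PRKX, CDH5 and RALGAPA2 and had 4.27, 4.27 and 8.46. Distance to lncRNA genes was not part of the rule. A lncRNA TSS was nearer than the protein-coding one for 1540 members (86.9%), and 1044 (58.9%) lay within 100 kb of one. In all, 42 members lay within 1000 bp of a lncRNA TSS. Because the rule kept only protein-coding TSSs over 100 kb away, a nearer lncRNA TSS follows in part from the rule. No share over other desert sequence was counted, so these counts show no link to lncRNA genes. Only 24 summits fell inside an annotated gene of another kind, 22 of them in pseudogenes.

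Fold enrichment is the authors' ratio of fragments stacked at a summit, called the pileup here, to the background expected there from the input, with 1 added to both. Desert peaks had a median of 3.85 (95% interval 3.80 to 3.94, range 2.04 to 18.9). Peaks in gene bodies away from promoters had a median of 3.52 (3.51 to 3.53), intergenic peaks within 100 kb 3.82 (3.79 to 3.82) and promoter peaks 4.92 (4.85 to 4.94). Desert peaks were thus above the peaks in gene bodies, and their interval overlapped that of the nearer intergenic peaks. Of the desert peaks, 438 (24.7%, exact binomial interval 22.7 to 26.8%) reached a fold enrichment of 5, beside 24.0% of all peaks. The share was 20.8% (19.7 to 21.8%) of the nearer intergenic peaks, 10.7% (10.4 to 11.0%) of those in gene bodies and 48.6% (47.9 to 49.2%) at promoters. A −log10 q of at least 5 was reached by 57.0% of desert peaks (54.6 to 59.3%), beside 51.6% of all peaks.

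The single largest fold enrichment in a desert was 18.9, against 59.98 in the nearer intergenic peaks, 52.6 in gene bodies and 64.9 at promoters. A largest value tends to rise with class size, and these classes held 1773, 5985, 37872 and 21324 peaks. The 99th percentile was 12.3 in deserts, 12.8 in the nearer intergenic peaks, 9.50 in gene bodies and 27.4 at promoters. Desert peaks had a median width of 309 bp (164 to 3672 bp), against 491 bp at promoters. The median pileup at a desert summit was 21 fragments, with a Poisson interval of 12.999 to 32.1 fragments, so single weak members cannot be ranked at this depth. The median background was 4.59 fragments. It was at the list's lowest level, 3.45 fragments, for 10.8% of desert peaks, 21.6% of the nearer intergenic peaks and 31.5% of promoter peaks. The part of these background differences in the fold enrichments was not tested.

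**Figure D2:**
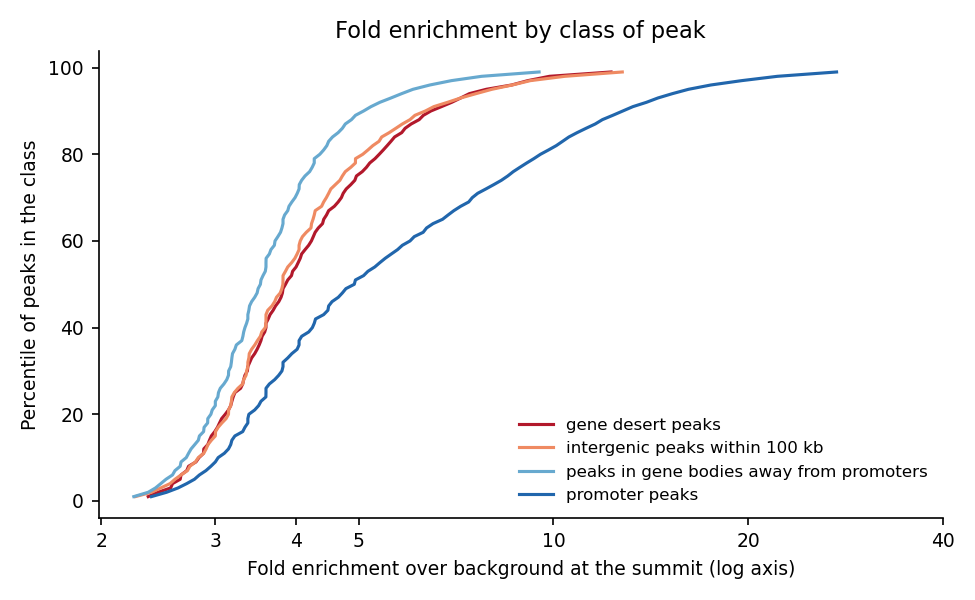
Percentile of peaks (vertical axis) at each fold enrichment (horizontal log axis, a ratio without unit) for the 4 classes of peak. The curve for desert peaks (median 3.85) runs beside that of intergenic peaks within 100 kb (3.82), to the right of peaks in gene bodies (3.52) and to the left of promoter peaks (4.92).

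The 10 strongest members had fold enrichments of 13.9 to 18.9 and lay on 9 chromosomes. The first, on chromosome 3, was 578 kb from EPHA3, which encodes an ephrin receptor. It had 117 fragments (Poisson interval 96.8 to 140) over a background of 5.25 and a fold enrichment of 18.9, rank 735 in the whole list. It was 1 of 9 members within 1 Mb of an assembly gap of at least 1 Mb, which had a median of 5.22 against 3.85 for the others. The second, at chrX:3733500-3734695, was 102.1 kb from the kinase gene PRKX and had 76 fragments over 3.45 and a fold enrichment of 17.3. The third, at chr2:121832498-121833124, was 159 kb from TFCP2L1, a transcription factor gene, and had 75 fragments over 3.45 and a fold enrichment of 17.1. Each of these pileups was far above the median of 21 over all members.

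The fourth, at chr1:144533859-144534405, had 266 fragments over a background of 14.9 and the highest −log10 q of any member, 221. Its summit lay in RNU1-59P, a U1 small nuclear RNA gene copy. Reads of near-identical copies can be uncertain in place, and whether this held here was not tested. The twelfth, at chr1:149223455-149224200, also lay by a small nuclear RNA gene, with 285 fragments over 19.6 and its summit 180 bp from RNVU1-18. Backgrounds of 10 fragments or more were found at 15 desert peaks (0.846%), beside 0.521% of all peaks. These 15 had a median fold enrichment of 3.20.

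The remaining 6 of the 10 lay near genes of varied function. They were at chr22:25843823-25844340 (GRK3, a G protein-coupled receptor kinase), on chromosome 14 (GALC, a lysosomal enzyme) and at chr7:25902370-25905939 (NFE2L3, a transcription factor), with fold enrichments of 15.9, 15.2 and 14.7. The others were at chr5:107150347-107150832 (EFNA5, an ephrin ligand), chr6:113233184-113233976 (RFPL4B) and chr6:81348048-81348799 (BCKDHB, a subunit of an enzyme of amino acid breakdown), with 14.4, 14.3 and 13.9. The NFE2L3 peak was also the second widest member at 3570 bp, and it led a group of 7 peaks within 13.4 kb. The widest member, of 3672 bp at chr9:118623430-118627101, lay 289 kb from PAPPA, and the third widest, of 3430 bp at chr6:123535115-123538544, 219 kb from CLVS2. Of the 10 strongest, 2 had CpG-rich summits, 0 held a MYB site, 0 held an AP-1 site and 0 had a GGAA repeat within 500 bp. Over all members these shares were 2.54%, 11.1%, 3.44% and 7.33%. The 10 peaks are too few to show a lack of these sites or repeats.

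Desert peaks lay on 22 of 23 chromosomes. Density was highest on chromosome 15, with 6.26 peaks per Mb of desert (4.60 to 8.32, 47 peaks), chromosome 22 with 5.79 (3.43 to 9.15, 18 peaks) and chromosome 20 with 5.32 (3.997 to 6.94, 54 peaks). The most peaks were on chromosome 2 (176) and chromosome 6 (167). Low values were found on chromosome 19 (1.71, 0.466 to 4.38, 4 peaks), chromosome 5 (1.86, 1.48 to 2.32), the X chromosome (1.99, 1.58 to 2.47) and chromosome 18 (2.12, 1.52 to 2.89). Chromosome 21 had 0 desert peaks in 8.12 Mb of desert, with a Poisson upper limit of 0.455 peaks per Mb (0.370 by a limit of 3 counts), while the rest of that chromosome held 29.1 peaks per Mb. The ratio of desert to other density ran from 0.0309 on chromosome 19 to 0.261 on chromosome 15 among chromosomes with a desert peak.

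**Figure D3:**
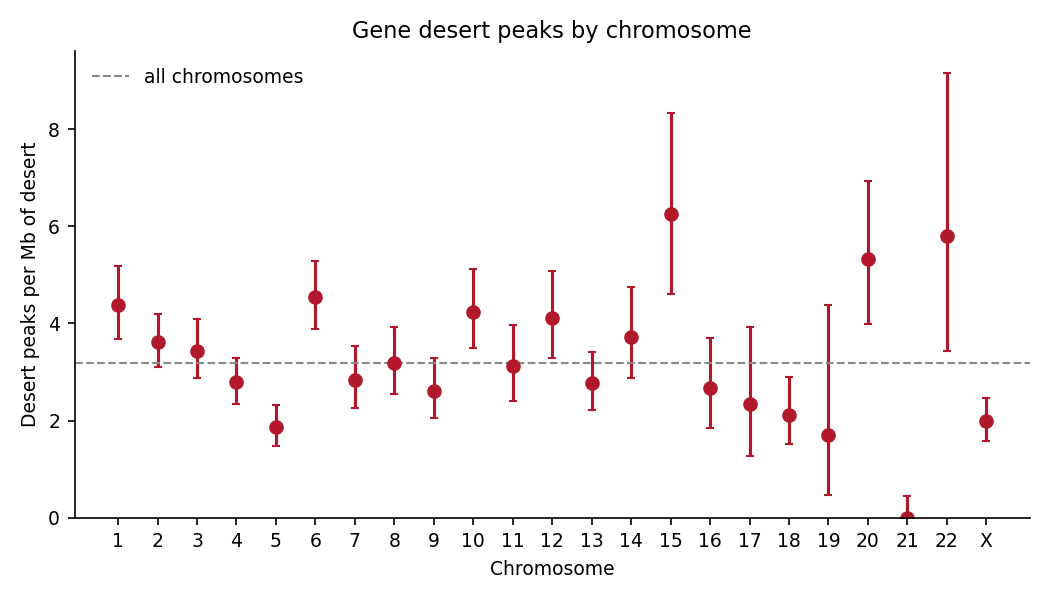
Desert peaks per Mb of desert on each chromosome, with 95% Poisson intervals and a dashed line at 3.19, the value over all chromosomes. Chromosome 15 is highest at 6.26 and chromosome 21 has 0 peaks.

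The desert space formed 4011 continuous stretches with a median of 65.9 kb, and 765 of them (19.1%) held a peak. The 227 stretches of at least 500 kb held 332 of the members, at 1.84 per Mb, while the shorter ones held 3.83 per Mb. The longest, of 2593 kb between ZPLD1 and ALCAM on chromosome 3, held the most peaks, 19, with a median fold enrichment of 3.68. Much shorter stretches came close to that number. A stretch of 127 kb between TRIB1 and LRATD2 held 17 peaks, and one of 144 kb between TUT7 and GAS1 also held 17. One of 174 kb between BET1 and COL1A2 held 14 and one of 208 kb between VRK1 and BCL11B held 13. The second longest, of 2354 kb between FAM133A and DIAPH2, held 5, and the third, of 2071 kb between EYS and ADGRB3, held 1. The fourth, of 1910 kb between SH3BGRL and POU3F4, was the longest with 0, and the fifth, of 1790 kb beside PCDH9, held 3.

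Members were also joined into groups by distance. With summits linked when they lay within 12500 bp of each other, 876 members (49.4%, 47.1 to 51.8%) belonged to 309 groups and 897 stood alone. No linked share is given here for the other, denser classes of peak, so grouping is not shown to be particular to deserts. Among the 438 members with fold enrichment of at least 5, where a neighbour also had to reach 5, it was 17.8%. Linked and single members had similar median fold enrichments, 3.80 and 3.94. The largest group held 18 peaks over 85.7 kb at chr13:91735933-91821659, nearest to GPC5, a glypican gene, and its strongest peak had a fold enrichment of 5.17. Others were 15 peaks over 35.2 kb near LRATD2, 12 peaks over 26.4 kb near TUT7, 11 over 15.5 kb near VRK1 and 10 over 33.9 kb near NR2F2. There were 27 groups of 5 or more.

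Repeats of GGAA were close to desert summits. At least 4 perfect copies of GGAA in a row lay within 500 bp of 130 desert summits (7.33%, 6.16 to 8.65%), beside 1.09% of all peaks. The share was 2.32% (1.96 to 2.74%) for intergenic peaks within 100 kb, 1.07% (0.971 to 1.18%) in gene bodies and 0.267% (0.203 to 0.346%) at promoters. Positions spaced 5 kb apart over the same deserts gave 0.441% (0.403 to 0.482%). These positions were not matched to the summits in GC content or in how well reads can be placed. Along intergenic sequence the share was 1.05% from 1 to 10 kb of a protein-coding TSS, 2.69% from 10 to 50 kb, 4.98% from 50 to 100 kb and 7.001% from 100 to 200 kb. It was 8.12%, 6.35% and 8.22% in the 3 ranges beyond. The values past 100 kb had overlapping intervals.

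Other repeats of 4 bases did not show this. At the same minimum and distance, AAAG repeats lay near 0.902% of desert summits (0.517 to 1.46%) and 0.602% of the spaced positions. GATA repeats lay near 0.226% (0.0615 to 0.577%) and 0.391%, and AAAT repeats near 0.733% (0.391 to 1.25%) and 1.34%. GGAA was the only one of the 4 units whose desert interval lay wholly above the value of the spaced positions.

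Of the 130 members, 115 had the repeat midpoint over 100 bp away, 15 within 100 bp and 7 within 50 bp, with a median distance of 249 bp. Of the spaced positions, 491 had a repeat within 500 bp and 110 had one within 100 bp. A window of 500 bp thus places most repeats over 100 bp away by itself, and these counts alone show no offset. On the side of higher coordinates, the bin from 100 to 200 bp held 16.9 repeats per 1000 desert peaks, the bin from 0 to 100 bp 2.82, and the spaced positions 0.548 and 0.593. On the side of lower coordinates the same bins held 8.46 and 6.77. These rates rest on 30 and 5 repeats on the higher side and 15 and 12 on the lower. The difference between the sides was not tested. In gene bodies the same bins held 1.90 and 0.528 on the higher side and 2.06 and 0.502 on the lower. In the nearer intergenic peaks they held 3.01 and 0.501, and 3.84 and 1.00, so these classes were low on both sides. The authors kept only reads of mapping quality 20 or more, and the part of that filter in these values was not tested. Peaks reached a repeat with at least 1 base in 45 members (2.54%, 1.86 to 3.38%), against 0.969% of the nearer intergenic peaks and 0.131% of promoter peaks.

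**Figure D4:**
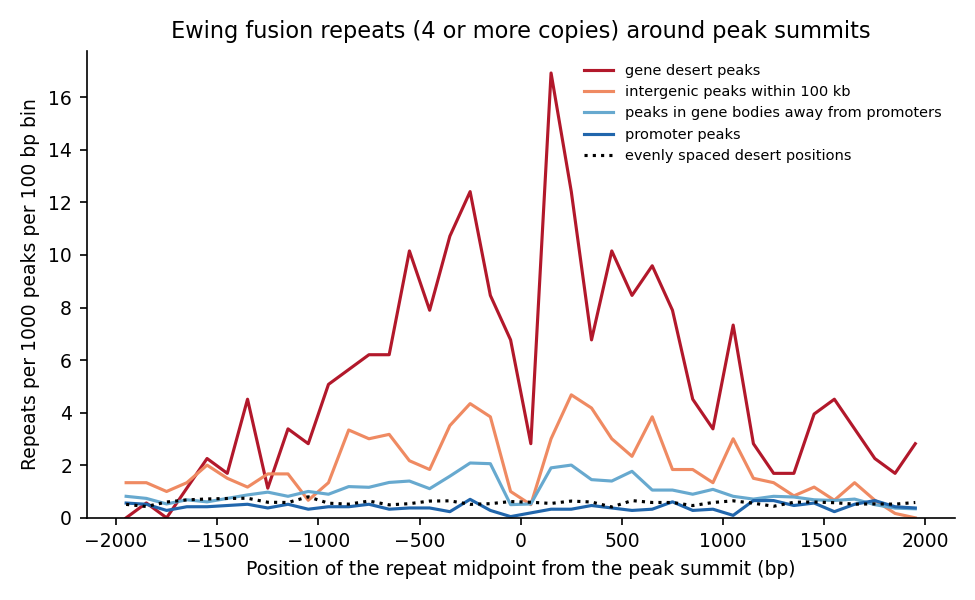
Repeats of GGAA, the unit the Ewing fusion binds, of 4 or more copies per 1000 peaks in 100 bp bins (vertical axis) by distance of the repeat midpoint from the summit in bp, for the 4 classes of peak and for evenly spaced desert positions (dotted). Desert peaks reach 16.9 per 1000 in the bin from 100 to 200 bp, and have 2.82 in the bin just right of the summit and 6.77 in the bin just left of it.

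Seen from the repeats, longer runs had a peak more often. Repeats within 200 bp of each other were joined into 2442 desert loci, of which 141 (5.77%) had a desert summit within 1000 bp. The share was 1.68% (1.05 to 2.53%) of 1312 loci with 4 or 5 copies in the longest run, 6.52% (4.44 to 9.18%) of 460 with 6 to 9, 10.6% (7.86 to 13.8%) of 445 with 10 to 13 and 18.7% (13.8 to 24.4%) of 225 with 14 or more. Loci of at least 10 copies were at 13.3%, which is 7.92 times the share of those with 4 or 5. That ratio was 15.9 with summits within 500 bp and 4.41 with each run taken as its own locus. AAAG loci went from 1.03% at 4 or 5 copies to 0.684% at 10 or more, GATA loci from 0.348% to 0.659% and AAAT loci from 0.313% to 0.264%, with overlapping intervals in each. Copy numbers are those of the reference and may differ in A673.

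**Figure D5:**
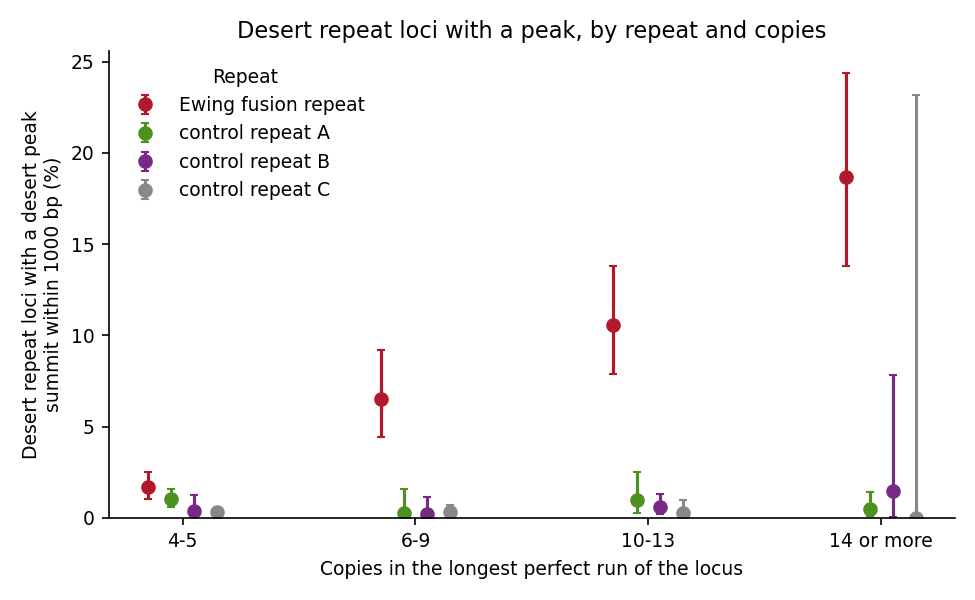
Percent of desert repeat loci with a desert peak summit within 1000 bp (vertical axis, exact 95% binomial intervals) by copies in the longest run, for the GGAA repeat that the Ewing fusion binds and for 3 control repeats (A is AAAG, B is GATA and C is AAAT). The GGAA repeat rises from 1.68% to 18.7%, and the points of the controls stay at or below 1.45%.

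At 50 desert loci a peak stood on each side of the repeat. Near BARX2, a homeobox gene, the 13 copies at chr11:129413810-129413861 had a summit 206 bp to the left with fold enrichment 12.4 and one 375 bp to the right with 6.98. Near PDGFC, a growth factor gene, the 19 copies at chr4:157439046-157439121 had summits at 214 and 168 bp with 7.08 and 3.27. Near INHBA, which encodes an activin subunit, 13 copies at chr7:41861430-41861481 had summits at 147 and 157 bp with 6.97 and 5.31. Near VRK1, a kinase gene, a run of 18 copies at chr14:97532376-97532447 and one of 13 at chr14:97532918-97532969 lay between summits with 7.11 and 6.06. Of the 130 members with a repeat, 98 (75.4%) were linked to another member, and of the others 778 (47.4%) were. These 130 members shared 107 nearest runs, and peaks beside the same run are linked by definition. The difference therefore follows in part from how the members were chosen, and the size of that part was not tested.

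A repeat went with no larger fold enrichment. Members with a GGAA repeat had a median of 3.87 (3.54 to 4.16) and the others 3.85, and 22.3% against 24.9% reached 5. With the members in 5 equal parts by rising fold enrichment, the share with a repeat was 6.76%, 9.32%, 5.92%, 8.47% and 6.20%, with no order. The strongest member of this kind, at chr9:118743170-118743842, had 100 fragments over 6.53 and a fold enrichment of 13.4. It lay 173 kb from PAPPA, which encodes a metalloproteinase.

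CpG-rich summits were few and had larger fold enrichments. The summit and the 150 bp on each side of it had a GC content of at least 50% and an observed over expected CpG of at least 0.6 in 45 members (2.54%), and in 0.496% of spaced desert windows. No share over all peaks is given here, so such summits are not shown to be particular to deserts. Their median fold enrichment was 5.39 (4.27 to 6.29) against 3.83 for the other members, and 25 of 45 (55.6%, 39.997 to 70.4%) reached 5, against 23.9%. The background entered this comparison, with a median of 3.45 fragments at these 45, the lowest level of the list, against 4.59 over all members. The median pileup was 23 against 21, so the pileups differed little. A pair of neighbouring peaks near PRKX, of 17.3 and 13.9, headed them together with that near GRK3. A peak at chr2:2616995-2617499, 282 kb from the neuronal zinc finger gene MYT1L, had 9.88. Of the 42 members within 1000 bp of a lncRNA TSS, 17 (40.5%, 25.6 to 56.7%) reached 5, and 9 of the 11 that were also CpG-rich did so.

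Across all members the sequence at summits was somewhat richer in GC than its surroundings. The median GC content of the summit and the 50 bases on each side was 41.6% (40.6 to 41.6%), against 38.6% in windows 500 bp away and 36.6% at spaced desert positions. At promoter summits it was 61.4%.

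Known sites were sought on both strands of the same bases, and a base could count in more than 1 site, since the ETS core and the TEAD site both hold GGAA on 1 of the strands. The MYB site was at 11.1% of desert summits (9.63 to 12.6%, 196 summits), 9.70% of their flanks and 9.39% of spaced windows, a ratio of 1.14 to the flanks. The interval of the summits held the flank value and lay just above the value of the spaced windows. As that interval is too narrow, neither difference is settled. Its ratio was 1.12 in the nearer intergenic peaks, 1.15 in gene bodies and 1.03 at promoters. Members with a MYB site had a median fold enrichment of 3.89, against 3.85 without. The CHR element (TTTGAA or TTCGAA) was at 12.6% of summits and 13.2% of flanks. The CCAAT box, read by NF-Y, was at 14.5% and 15.0%.

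The AP-1 site was at 3.44% of desert summits (2.64 to 4.40%, 61 summits), 1.41% of flanks and 1.53% of spaced windows. The ratio was 2.44, and 1.89 in nearer intergenic peaks, 1.54 in gene bodies and 0.980 at promoters. With fold enrichment of at least 5 the desert ratio was 3.60. The strongest of these summits, shown above, lay at chr1:30851513-30852905 with a fold enrichment of 9.42, at chr10:36712649-36713839 with 9.08 near ANKRD30A and at chr4:127699541-127699973 with 8.71 near INTU. The TEAD site (CATTCCA or CATTCCT) was at 5.13% of summits (4.15 to 6.26%) and 3.95% of flanks, a ratio of 1.30. That ratio was 1.27 in nearer intergenic peaks. The E2F site (TTTCCCGC, TTTCGCGC, TTTGCCGC or TTTGGCGC) was at 8 summits (0.451%, 0.195 to 0.887%) and 4 flank windows (0.113%). Its share was also 0.451% in nearer intergenic peaks and was 1.18% at promoters. The ETS core (CCGGAAGT) was at 6 summits (0.338%, 0.124 to 0.735%) and 0 flanks. It was at 0.334% of nearer intergenic summits and 1.89% of promoter summits. The CTCF core was at 0 desert summits, with an exact binomial upper limit of 0.208% (0.169% by a limit of 3 counts).

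The nearest protein-coding genes numbered 654, of which 292 had 1 member. The peaks were counted for 4 lists of genes, each against the desert sequence that lay nearest to its genes, and all desert sequence held 3.19 peaks per Mb. Nearness says nothing of regulation. Density fell with distance from a TSS, as given above, and the lists differed in distance. The median distance of their peaks was 337 kb for the developmental list and 532 kb for the synaptic and neuronal adhesion list. It was 278 kb for the Ewing fusion list and 401 kb for the late cell cycle list, against 232 kb over all members. The densities were not adjusted for distance, and its part in them was not tested.

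Developmental transcription factor genes had 120 desert peaks over 25.9 Mb, at 4.63 per Mb (3.84 to 5.54), with a median fold enrichment of 3.80 beside 3.85 over all members. Of the 107 genes of the list, 84 had desert sequence and 34 a desert peak. With fold enrichment of at least 5 the density of the list relative to all deserts went from 1.46 to 0.982. NR2F2, a nuclear receptor gene, had 19 peaks with fold enrichments of 2.58 to 6.22, lying 360 to 769 kb from its TSS. TFAP2A, a factor of neural crest, had 11 with 2.36 to 9.18. IRX3, a homeobox gene, had 7 with 3.001 to 6.45. SOX11 had 7 of at most 5.71, NR2F1 had 6 of at most 7.61, and TFAP2B and PAX3 had 5 each of at most 5.83 and 3.87.

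Genes known to be activated by the Ewing fusion had 55 peaks over 6.45 Mb, at 8.53 per Mb (6.43 to 11.1), and 22 of the 50 matched genes had desert sequence. VRK1 alone had 24 of these peaks, with fold enrichments of 2.25 to 8.24, and without it the density was 5.40 per Mb. PAPPA had 7 with 2.34 to 13.4, and CDH8, a cadherin gene, had 6 with 3.17 to 5.75. MYC, POU3F1, SOX2 and BCL11B, which are also in the developmental list, had 3 each. A GGAA repeat lay within 500 bp of 8 of the 55 summits, 3 of them near VRK1, beside 7.33% of all members.

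Late cell cycle genes had little desert sequence, 1.32 Mb at 8 of 57 genes, and 17 peaks, which lay near 2 genes. NUF2, which encodes a kinetochore subunit, had 10 with fold enrichments of 2.66 to 7.84 at 198 to 535 kb. MKI67, the gene of the proliferation marker Ki-67, had 7 with 3.11 to 4.65 at 401 to 618 kb. The density was 12.9 per Mb (7.50 to 20.6), and 8.61 per Mb without NUF2.

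Synaptic and neuronal adhesion genes lay beside much desert, 66.4 Mb, and had fewer peaks in it, 140 at 2.11 per Mb (1.77 to 2.49). NLGN4X, a neuroligin gene, had 12 with fold enrichments of 2.43 to 6.30. EPHA7 had 11 with 2.70 to 7.88, FLRT2 had 11 with 2.73 to 7.17 and CDH11 had 9 with 2.74 to 5.31. EPHA3 had 8 with 3.32 to 18.9, and TENM3 had 9 with 2.90 to 6.52, the nearest of them 1351 kb away. LRRC4C and PCDH7 had 8 each, of at most 6.05 and 8.87.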

How the data were processed

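ChIP and input libraries were sequenced as 100 bp single-end reads. The authors, as the methods state, mapped them to hg19 with Bowtie2 (2.1.10 in the submitters' processing notes), kept reads of mapping quality 20 or more and called narrow peaks with MACS2 (2.0.10), with the input as control. What the cleaning of the peak list removed is not given in the sources used here. The deposited values are the authors' score, fold enrichment (a linear ratio), −log10 p and −log10 q. The score was not used.

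The pileup and background of each peak were solved from the deposited fold and −log10 p. The background floor, MACS2's preset genome size of 2700000000 bp and the smallest width of 164 bp give about 56800000 ChIP reads. Genes were 20098 protein-coding and 18592 lncRNA genes of GENCODE 44 lifted to GRCh37, on 23 chromosomes. Promoter peaks had a summit within 1000 bp of a TSS of either kind. Of the rest outside deserts, peaks with a summit in a gene body were set apart from intergenic ones. Motif windows were 50 bp either side of the summit, flanks were centred 500 bp away, and spaced positions every 5 kb numbered 111338. Repeats were perfect runs on either strand. Scripts used Python 3.11.15, numpy 2.4.6, scipy 1.17.1 and pandas 2.3.3, and were checked on simulated data. Shares have exact (Clopper-Pearson) intervals, densities and pileups Poisson intervals, and medians order-statistic intervals, all at 95%.

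The members and lists were chosen with earlier results of these data known. The gene lists were written from general knowledge, and 107, 87, 50 and 57 of their 107, 89, 51 and 57 symbols matched. The repeat distances, the control repeats, the repeat loci, the CpG-rich class, the lncRNA and assembly gap subsets and the lists without 1 gene were chosen after seeing the data. Named peaks were the 10 with the largest fold enrichment, the farthest, the 3 widest, those at the distance limit, the stretches with most peaks or greatest length, and list genes with at least 3 peaks. Other peaks were named after their values were seen, as the strongest of the subset described. Repeat masking was not used here. The sequences of 2 of the strongest peaks and the values of 1 gene of the developmental list are not reported here.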

Additional observations from a re-analysis of the deposited data

How the results depend on the processing

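No paired analysis was possible because ChIP and input were 1 library each, and no replicate could be left out for the same reason. The number of members was 1010 with −log10 q of at least 5, 438 with fold enrichment of at least 5, 1016 beyond 200 kb and 729 when lncRNA TSSs also had to be over 100 kb away. The density relative to the rest of the genome was 0.123 with −log10 q of at least 5, 0.122 beyond 50 kb, 0.0952 beyond 200 kb, 0.120 with only the outermost TSS of each gene and 0.0899 with lncRNA TSSs. The linked share was 35.8% with −log10 q of at least 5, 17.8% with fold enrichment of at least 5, 41.6% within 5 kb and 57.1% within 25 kb. The ratio for developmental transcription factor genes was 0.982 with fold enrichment of at least 5. Among alternatives chosen after seeing the data, the GGAA share was 2.59% within 200 bp, 11.9% within 1000 bp and 5.89% with 1 peak of each linked group. The ratio of long to short GGAA loci was 15.9 within 500 bp, 5.53 within 2000 bp, 10.2 with fold enrichment of at least 5, 11.4 with −log10 q of at least 5 and 4.41 with each run as its own locus. The difference in median fold enrichment from other peaks outside promoters, the GC difference and the MYB ratio stayed within their intervals, or kept their sign on another scale, under every alternative run. The causes of these changes were not tested. With 1 library, the spread between experiments is unknown, and weak peaks of about 20 fragments cannot be ranked.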
